A study of Mus musculus with 30 samples.

Results

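The mouse genome carries a large family of zinc finger genes whose symbols are Zfp followed by a number, and 300 of them were followed here in cultured microglia. The table held 389 protein-coding genes of that name, without the Zfp36 family of RNA-binding proteins. Of these, 312 had at least 1 CPM (a gene's counts scaled to the size of its library) in 15 or more of the 30 libraries, and the 300 with the highest mean CPM were kept. The members were thus chosen by their expression level, and no test between groups entered the choice. The rule is still not neutral between treatments, since each treatment has fewer than 15 libraries. A gene under 1 CPM in only 1 treatment could pass, and a gene over 1 CPM in only 1 treatment could not. Levels at the edge ran closely together. Zfp354c, a member, reached 1 CPM in 18 libraries, with a mean of 1.68 CPM before scaling. Zfp551 in 18 libraries and Zfp239 in 24 passed the library count but were left out by their means of 1.35 and 1.39 CPM. Zfp462 missed the library count, with 14. Of the 300 members, 233 reached 1 CPM in all 30 libraries.

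The cells were primary microglia, macrophages that reside in the brain, of C57BL/6 mice at postnatal day 21 that lacked the Parkinson's disease kinase gene Lrrk2 (Lrrk2-/-, here KO) or carried it (wild type). They received lipopolysaccharide (LPS), which stems from the outer membrane of bacteria and acts through Toll-like receptor signalling, or fibrils of α-synuclein, the protein of Lewy bodies, or were left as controls. Bulk RNA sequencing of ribosome-depleted total RNA gave 4 KO libraries with LPS, 5 KO libraries with fibrils, 6 KO controls, 6 wild-type libraries with LPS, 4 wild-type libraries with fibrils and 5 wild-type controls. The sources used here give no doses or times, and the labels do not say which libraries share an animal or a culture, so p-values measure the spread between these libraries, which may be technical.

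Most members encode proteins with a row of C2H2 zinc fingers, each a short loop held by a zinc ion through a pair of cysteines and a pair of histidines, that reads a few bases of DNA. Many also carry an N-terminal KRAB box, which recruits the corepressor Trim28 (KAP1) and through it the histone H3 lysine 9 methyltransferase Setdb1. KRAB zinc finger genes lie in tandem clusters that expand quickly between species, and their products are best known for silencing retroelements and for guarding imprinted marks. A KRAB box pattern was found in the reading frame of 172 members and none in 128, and the method may miss degenerate boxes.

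Promoter sequence is shown for 6 members on which the LPS results below turn, 4 that fell and 2 that rose, because the fall ran across many family members. Each line holds the 100 bases before the RefSeq transcription start on build GRCm38.p6, 5′ to 3′ on the gene's strand. The stretches are chr13:67813716-67813815 (+) for Zfp273, chr7:12881078-12881177 (+) for Zfp128, chr17:33033382-33033481 (-) for Zfp763, chr7:24299550-24299649 (-) for Zfp61, chr16:3743999-3744098 (+) for Zfp263 and chr3:98382381-98382480 (+) for Zfp697. Capitals mark matches, on either strand, to the GC box GGGCGG, the box named CCAAT after its letters, the TATA box TATAAA, an ETS-type site spelled CCGGAAG and the long ZNF143 element known to be bound by Zfp143.
Zfp273: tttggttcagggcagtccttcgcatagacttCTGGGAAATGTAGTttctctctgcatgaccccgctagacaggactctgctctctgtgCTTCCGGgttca
Zfp128: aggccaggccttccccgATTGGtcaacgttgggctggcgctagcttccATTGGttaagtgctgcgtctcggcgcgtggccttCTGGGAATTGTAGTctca
Zfp763: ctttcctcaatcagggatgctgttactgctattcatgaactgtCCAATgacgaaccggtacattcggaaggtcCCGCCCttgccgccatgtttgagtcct
Zfp61: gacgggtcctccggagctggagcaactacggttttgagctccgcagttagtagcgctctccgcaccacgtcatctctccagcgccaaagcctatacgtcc
Zfp263: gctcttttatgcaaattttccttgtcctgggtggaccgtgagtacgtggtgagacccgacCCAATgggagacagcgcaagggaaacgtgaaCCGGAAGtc
Zfp697: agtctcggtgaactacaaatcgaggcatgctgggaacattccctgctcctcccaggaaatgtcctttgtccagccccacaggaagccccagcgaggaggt

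The Zfp143-type element lay 56 to 69 bases before the start of Zfp273 and 5 to 18 bases before that of Zfp128, while the printed stretches of Zfp61 and Zfp697 held none of the motifs. The Zfp61 stretch precedes a RefSeq start that lies inside the gene span given below. The outer end of that span was not searched. In the full RefSeq windows, 250 bases before to 50 after a start, 252 members could be searched, beside 16307 protein-coding genes. The Zfp143-type element was present for 21 of 145 members that fell with LPS in both genotypes (14.5%), for 4 of 107 other members (3.74%) and for 1.72% of all protein-coding genes. This motif was added to the search after the sequences had been seen. It was also present for 12.6% of KRAB members and 5.94% of members without a KRAB box. Of all members that fell in both genotypes 72.5% carry a KRAB box, so the split by LPS and the split by KRAB box are mixed. They were not tested apart. GC boxes were held by 40% of the members that fell, 58.9% of the others and 51.5% of all genes. The ETS-type letters were found in 26.2%, 20.6% and 13.5% of the same 3 sets, and the CCAAT box in 56.6%, 47.7% and 42.1%. GC boxes also differed by KRAB box, with 37.1% of KRAB members and 64.4% of members without one, and these splits were not tested apart. Other motifs searched, named AP-1, YY1, NRF1, CRE and NF-κB, were found in 0.397% to 5.16% of members. A match is only a run of letters. For the motifs marked in capitals above, 14 of the 592 matches in members' windows overlapped a match of another of them.

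Lrrk2 levels followed the labels, with 0.731 to 4.68 CPM in the 15 KO libraries and 6.87 to 16.7 CPM in the 15 wild-type libraries. Gene totals ran from 8936310 to 35677005 counts, with a median of 20432234. Microglial markers averaged 7.51 to 8.36 on the log2 CPM scale in every library. Markers of other brain cells varied more: the 44 measured markers of astrocytes, oligodendrocytes, fibroblasts, neurons and vessels summed to 198 to 729 CPM in KO LPS, 264 to 584 CPM in KO fibril, 268 to 1208 CPM in KO control, 145 to 601 CPM in wild-type LPS, 144 to 165 CPM in wild-type fibril and 164 to 555 CPM in wild-type control libraries. An earlier analysis of these data set 7 libraries apart (KO controls 1, 4 and 6, KO fibril 5, wild-type LPS 1 and 6, wild-type control 6). The number of members called in each comparison and the values of named members were also taken without them. Counts by cluster, finger number, level, overlap, motif or other gene list were not. In bulk RNA, fewer cells of a type and less RNA per cell cannot be told apart.

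Members were mostly lowly expressed, with mean levels of 1.47 to 229 CPM and a median of 8.63 CPM. Only 71 reached 20 CPM, and 94 lay under 5 CPM. Per kilobase of transcript and over all 30 libraries, Zfp263, a transcription factor with a SCAN domain, averaged 70.7 CPM per kb, a mean that its LPS libraries raise, Zfp207, a spindle assembly factor known as BuGZ, 69.4 CPM per kb, and Zfp91, an E3 ubiquitin ligase of the non-canonical NF-κB pathway, 41.2 CPM per kb. Of the 8 members with the highest mean CPM over all libraries, Zfp91, Zfp106, Zfp207, Zfp638 and Zfp148 passed the test with LPS in neither genotype, while Zfp263 and Zfp516 rose and Zfp710 fell in both. For 39 members at least 10% of the 100-base windows of their transcripts occur in another gene as well, so their counts are uncertain.

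Most of this family was lower with LPS, in KO and in wild-type microglia. In KO cells 186 of 300 members fell (62%), against 7.35% of all 14346 genes tested, and 11 rose (3.67%), against 6.36% of all genes (edgeR's quasi-likelihood test, adjusted p under 0.05 after Benjamini-Hochberg adjustment over all genes). In wild-type cells 188 fell (62.7%), against 8.03% of all genes, and 12 rose (4%), against 7.1%. The median log2 fold change was -0.67 in KO and -0.68 in wild type, while the median of all genes was -0.04 and -0.02. Among 6201 protein-coding genes between the 10th and 90th percentile of the members' levels, 12.4% fell in KO and 14% in wild type.

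For 158 members every KO LPS library lay below every KO control (52.7%, against 5.33% of all genes), and for 161 every wild-type LPS library lay below every wild-type control (53.7%, against 6.03%). Groups lay apart in the other direction for 10 members in each genotype (3.33%), against 4.84% of all genes in KO and 5.51% in wild type. Log2 fold changes of -1 or lower were estimated for 93 members in KO and 98 in wild type. Among the 233 members above 1 CPM in every library, 134 fell in KO (57.5%) and 136 in wild type (58.4%).

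**Figure D1:**
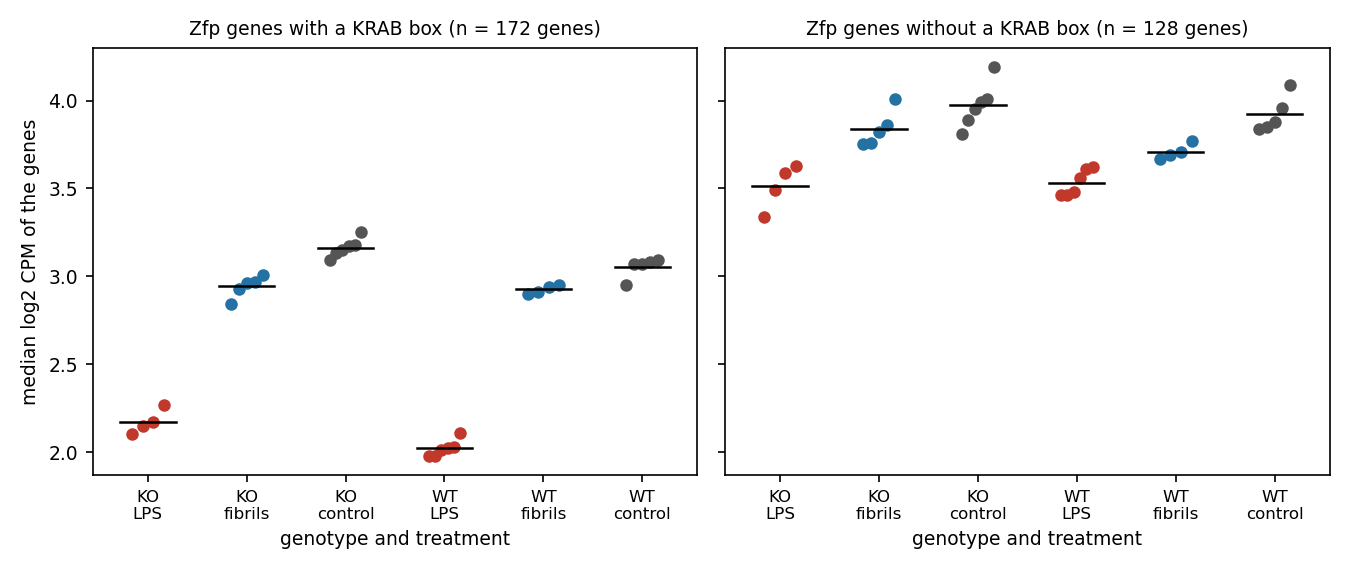
Median log2 CPM of members with a KRAB box and of members without one in each of the 30 libraries, by genotype and treatment. The KRAB medians of the LPS libraries, 2.10 to 2.27 for KO, 1.98 to 2.11 for wild type, lie below those of all other libraries, 2.84 to 3.25.

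The genes that fell were largely the same in both genotypes. Lower in both were 171 members, which is 91.9% of those that fell in KO and 91% of those that fell in wild type. In both genotypes 10 rose, and none passed the test in opposite directions. Across the 300 members the log2 fold changes had a Pearson correlation of 0.93, beside 0.67 over all genes; the controls of each genotype are separate libraries, and genes are not independent replicates.

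**Figure D2:**
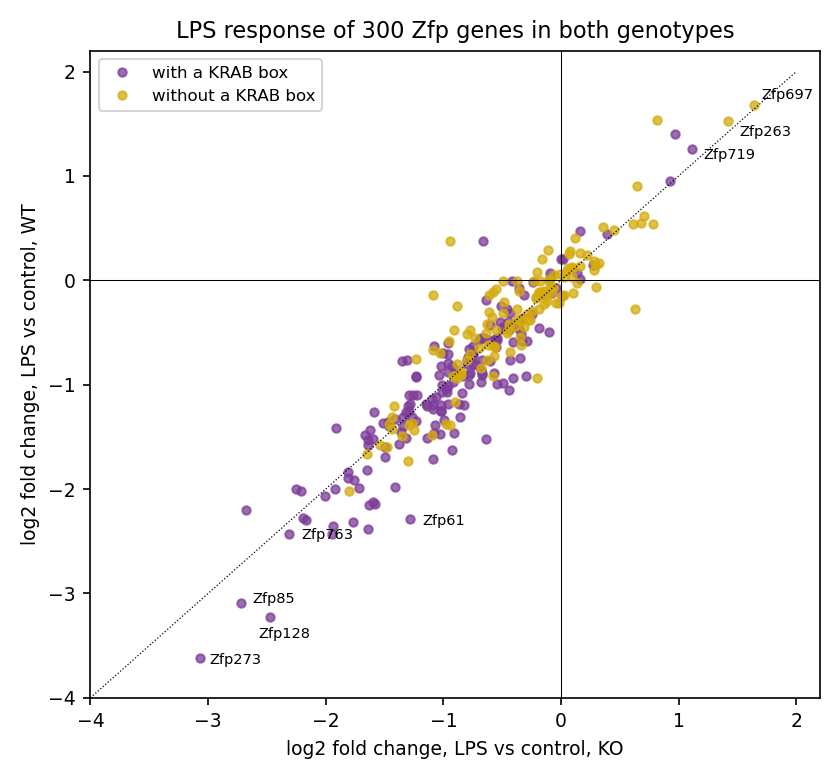
Log2 fold change of LPS against control for each of the 300 members, in KO (x axis) and in wild type (y axis), marked by whether a KRAB box was found. The cloud lies along the diagonal, with 171 members lower in both genotypes, 10 higher in both and none called in opposite directions.

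Among members with a KRAB box 129 of 172 fell in KO (75%), with a median log2 fold change of -0.93, and 138 of 172 in wild type (80.2%), with a median of -0.96. Among members without one, 57 of 128 fell in KO (44.5%), with a median of -0.34, and 50 of 128 in wild type (39.1%), with a median of -0.26. Members that fell in both genotypes carried a KRAB box in 72.5% of cases and had a median of 12 fingers, while the 84 members called in neither carried one in 29.8% and had a median of 8 fingers. By number of fingers, 98 of 122 members with 12 or more fell in KO and 92 of 122 in wild type, but of those with 0 to 3 fingers only 6 of 32 fell in KO and 5 of 32 in wild type. Level differed too, with a median of 7.51 CPM in members that fell in both and 14.2 CPM in those called in neither. These sets were not tested against each other. Levels, here and in the split at 5 CPM, are means over all libraries, so a fall with LPS itself lowers them. Within the KRAB members, 53 of 66 under 5 CPM fell in KO and 55 of 66 in wild type, as did 76 of 106 above that level in KO and 83 of 106 in wild type.

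Per library, the median log2 CPM of KRAB members was 2.10 to 2.27 in KO LPS cultures, against 3.09 to 3.25 in KO controls, and 1.98 to 2.11 in wild-type LPS cultures, against 2.95 to 3.09 in wild-type controls. Members without a KRAB box had medians of 3.34 to 3.63 in KO LPS cultures, against 3.81 to 4.19 in KO controls, and 3.46 to 3.62 in wild-type LPS cultures, against 3.84 to 4.09 in wild-type controls. In each case the LPS libraries lay below the controls with no overlap. All members together made up 0.456% to 0.544% of counts with LPS and 0.628% to 0.681% in controls of KO, and 0.438% to 0.5% with LPS and 0.541% to 0.668% in controls of wild type.

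**Figure D3:**
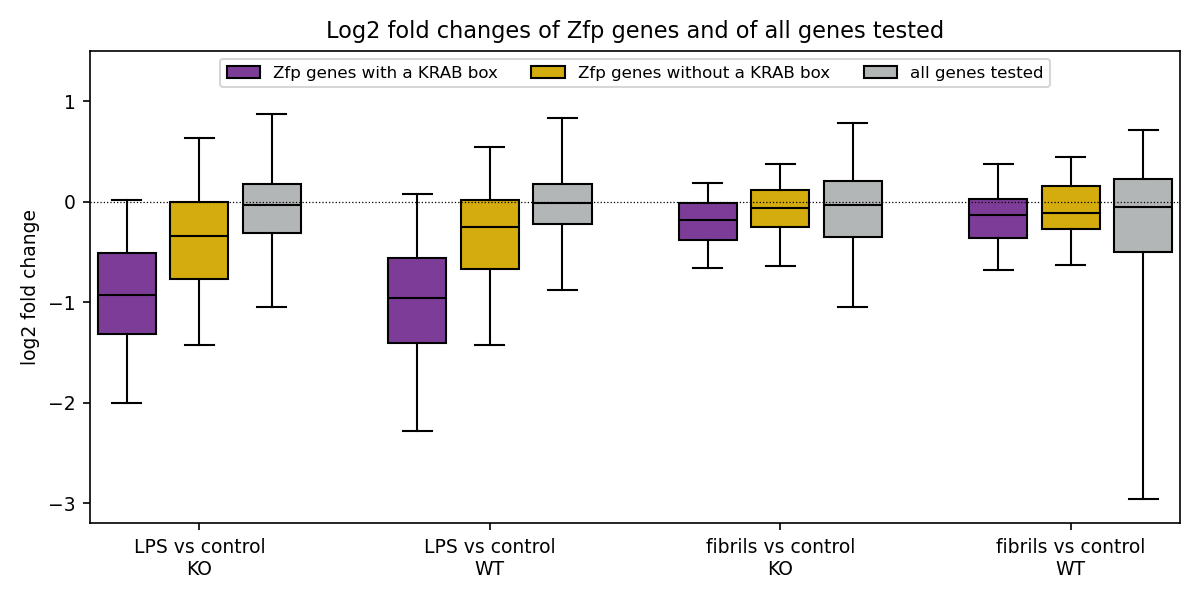
Log2 fold changes of members with a KRAB box, members without one and all genes tested, for LPS and fibrils against control in KO and in wild type; boxes span the quartiles with the median as a line, and whiskers run to the 5th and 95th percentiles. KRAB members have medians of -0.93 (KO) and -0.96 (wild type) with LPS and -0.18 and -0.14 with fibrils.

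The largest decreases were those of KRAB genes with low mean levels over all libraries, means that the fall itself lowers. Zfp273, with 15 fingers, lies at the end of a large cluster on chromosome 13 (chr13:67813740-67827002, + strand, GRCm38). It had 0.519, 0.542, 0.357 and 0.515 CPM in KO LPS libraries, against 2.98 to 5.17 CPM with a median of 4.05 in KO controls. Wild-type LPS libraries had 0.146 to 0.373 CPM with a median of 0.3, against 3.64, 2.74, 3.09, 3.35 and 4.79 CPM in wild-type controls. The LPS libraries of both genotypes lay far below their controls, and the log2 fold change was -3.07 ± 0.30 (SE) in KO, with an adjusted p of 1.52e-08, and -3.62 ± 0.28 in wild type, with an adjusted p of 9.22e-11 (edgeR's quasi-likelihood test). All LPS libraries lay under 1 CPM, so Zfp273 passed the rule for members through its control and fibril libraries.

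Zfp128 (chr7:12881177-12893422, + strand) had 0.972, 0.814, 1.51 and 1.29 CPM in KO LPS libraries, against 4.77 to 8.13 CPM with a median of 6.43 in KO controls. In wild-type LPS libraries it had 0.306 to 0.75 CPM with a median of 0.489, against 6.42, 6.39, 3.78, 3.26 and 4.73 CPM in wild-type controls. No LPS library overlapped a control, and the log2 fold change was -2.47 ± 0.24 in KO (edgeR's adjusted p = 2.05e-08) and -3.23 ± 0.23 in wild type (adjusted p = 3.17e-11). All wild-type LPS libraries and the KO LPS libraries at 0.972 and 0.814 CPM lay under 1 CPM. Zfp128 thus passed the rule for members mainly through its control and fibril libraries.

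Zfp763 (chr17:33016863-33033402, - strand), with 13 fingers, had 1.04, 1.14, 2.46 and 2.23 CPM in KO LPS libraries, against 5.53 to 11.3 CPM with a median of 8.72 in KO controls. Wild-type LPS libraries had 0.432 to 2.25 CPM with a median of 1.27, against 8.51, 7.56, 7.84, 6.4 and 5.49 CPM in wild-type controls. Its groups did not overlap, and it fell by 2.31 ± 0.30 on the log2 scale in KO (edgeR's adjusted p = 2.31e-06) and by 2.43 ± 0.27 in wild type (adjusted p = 1.21e-07). Zfp85, beside Zfp273 in the chromosome 13 cluster, had log2 fold changes of -2.72 ± 0.32 in KO and -3.09 ± 0.29 in wild type, and Zfp39 on chromosome 11 of -1.95 ± 0.21 and -2.43 ± 0.19.

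Members in genomic clusters fell more often than members elsewhere, in a count that was not tested. Clusters were defined as runs of at least 4 members on 1 chromosome whose successive starts lie at most 1 Mb apart, which gave 19 clusters with 161 members. Inside clusters 123 of 161 members fell in KO (76.4%) and 130 of 161 in wild type (80.7%); outside, 63 of 139 fell in KO and 58 of 139 in wild type. KRAB members outside clusters fell in 31 of 44 cases in KO and 32 of 44 in wild type, and members without a KRAB box inside clusters in 25 of 33 and 24 of 33 cases. Members with neither feature fell in 32 of 95 cases in KO and 26 of 95 in wild type.

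The cluster at chr13:67038596-67827002 holds 21 members, all with a KRAB box, and 17 of them fell in KO and 20 in wild type. Zfp759 in this cluster had 1.75, 1.46, 1.63 and 2.14 CPM in KO LPS libraries, against 6.67 to 9.84 CPM with a median of 7.6 in KO controls. In wild-type LPS libraries Zfp759 had 0.864 to 1.82 CPM with a median of 1.45, against 8.36, 7.2, 6.47, 5.25 and 7.76 CPM in wild-type controls. Again no LPS library reached a control, with log2 fold changes of -2.19 ± 0.19 in KO (edgeR's adjusted p = 2.27e-09) and -2.28 ± 0.17 in wild type (adjusted p = 8.23e-11). Its neighbour Zfp429, named after its values were seen, did not pass the test in either genotype, with estimates of 0.14 in KO and 0.07 in wild type.

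On chromosome 17, 17 of 21 members of the first cluster fell in each genotype, among them Zfp760, Zfp53 and Zfp51. In the second cluster of chromosome 17, which holds Zfp870, Zfp472 and Zfp763, 11 of 13 fell in KO and 10 of 13 in wild type. All 8 members of the chromosome 6 cluster fell in both genotypes although only 3 of them have a KRAB box, as did all 8 of the chromosome 7 cluster with Zfp180, Zfp235 and Zfp61. The chromosome 4 cluster of 5 KRAB genes stood at the other end, with 2 that fell in KO and 1 in wild type. The chromosome 7 run from Zfp788 to Zfp719 was mixed: 4 fell and 2 rose in KO, and 3 fell and 2 rose in wild type.

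**Figure D4:**
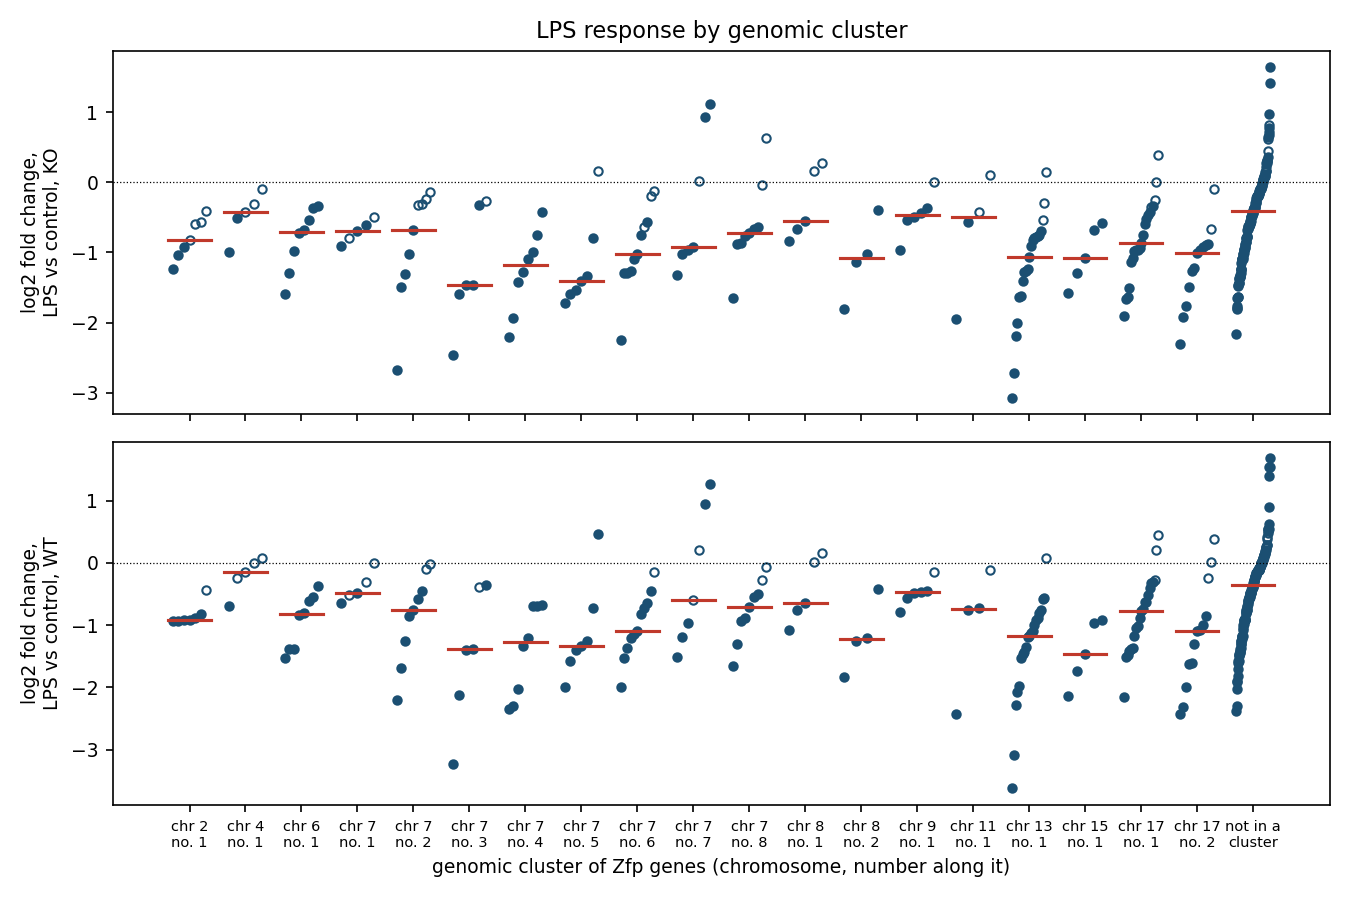
Log2 fold change of LPS against control for the members of each genomic cluster, with KO in the upper and wild type in the lower panel; filled points passed the test and the red bar is the cluster's median. Medians lie below 0 in all 19 clusters in both panels, from -0.42 in KO and -0.14 in wild type on chromosome 4 to -1.46 on chromosomes 7 (KO) and 15 (wild type).

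Among members whose targets are known from mouse studies, named here after their values were seen, Zfp809, which silences murine leukaemia virus sequences in embryonic cells, had 2.46, 2.06, 2.06 and 1.93 CPM in KO LPS libraries, against 2.19 to 4.62 CPM with a median of 3.32 in KO controls. The highest LPS value exceeded the lowest control, and the log2 fold change was -0.65 ± 0.20 in KO (edgeR's adjusted p = 0.0283) and -0.55 ± 0.18 in wild type (adjusted p = 0.0442). These calls were weak: 9 of 21 alternatives ended the first and 11 of 22 the second, among them leaving out KO control 1, 5 or 6, KO LPS 2, 3 or 4, wild-type control 1, 2 or 3, or wild-type LPS 1, 2, 5 or 6 (adjusted p 0.0549 to 0.173). Zfp568, which represses a placental promoter of Igf2 in the embryo, fell by 0.75 ± 0.15 on the log2 scale in KO and by 0.72 ± 0.13 in wild type. Zfp445, which maintains imprinted methylation, did not pass the test, with estimates of -0.16 in KO and -0.13 in wild type.

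Zfp746 encodes PARIS, a substrate of the Parkinson's disease ubiquitin ligase parkin that represses the mitochondrial regulator PGC-1α; it is likewise outside the naming rule. It had 19.3, 21.3, 20.8 and 21.7 CPM in KO LPS libraries, against 24.1 to 29.7 CPM with a median of 25.8 in KO controls, and 14.9 to 19.5 CPM with a median of 18.9 in wild-type LPS libraries, against 26.8, 26.5, 26.7, 30.5 and 28.2 CPM in wild-type controls. The ranges did not overlap in either genotype, and it fell by 0.34 ± 0.09 on the log2 scale in KO (edgeR's adjusted p = 0.0104) and by 0.62 ± 0.08 in wild type (adjusted p = 2.5e-06). Without KO LPS library 1 the KO call was lost (adjusted p = 0.055). With fibrils Zfp746 did not pass the test in either genotype, with estimates of 0.03 in KO and -0.10 in wild type.

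Few members rose with LPS, and Zfp263 had the highest level among them. Zfp263 (chr16:3744093-3750790, + strand) had 339, 347, 367 and 358 CPM in KO LPS libraries, against 101 to 168 CPM with a median of 134 in KO controls. Wild-type LPS libraries had 351 to 460 CPM with a median of 402, against 142, 132, 146, 143 and 142 CPM in wild-type controls. Every LPS library held more than any control, with log2 fold changes of 1.42 ± 0.11 in KO (edgeR's adjusted p = 2.6e-10) and 1.53 ± 0.11 in wild type (adjusted p = 3.47e-11).

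Zfp719, a KRAB gene with 13 fingers, also rose. It had 31.1, 30, 36.4 and 37.8 CPM in KO LPS libraries, against 11.4 to 20.4 CPM with a median of 15.9 in KO controls, and 29 to 35.2 CPM with a median of 32.3 in wild-type LPS libraries, against 14.1, 12.8, 16.9, 11.8 and 11.4 CPM in wild-type controls. All LPS values were above all control values, with log2 fold changes of 1.11 ± 0.15 in KO (edgeR's adjusted p = 3.56e-06) and 1.26 ± 0.15 in wild type (adjusted p = 2.24e-07). Zfp516, known from mouse adipocytes as an activator of brown fat genes, had 151, 139, 127 and 116 CPM in KO LPS libraries, against 56.3 to 98.9 CPM with a median of 84.1 in KO controls, and rose by 0.68 ± 0.16 on the log2 scale in KO and 0.55 ± 0.15 in wild type. In wild type the Zfp516 ranges overlapped, since LPS libraries began at 101 CPM and the 2 highest controls had 114 and 131 CPM, and the call was lost without wild-type control 1 or 2 (adjusted p = 0.0559 and 0.0541). The other members higher in both genotypes, listed in full after their values were seen, were Zfp451, Zfp275, Zfp800, Zfp131, Zfp658, Zfp697 and Zfp558, of which Zfp697 had the largest estimates at 1.64 ± 0.36 in KO and 1.68 ± 0.36 in wild type. The KO call of Zfp558 was lost in 9 of 21 alternatives, among them without KO LPS 1 or 2 (edgeR's adjusted p = 0.164 and 0.0634).

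Few genes of the corepressor machinery passed the test with LPS, where 13.7% of all genes were called in KO and 15.1% in wild type. Of 30 genes of the KAP1 and H3K9 silencing list, 1 fell with LPS in KO (Atf7ip, a partner of Setdb1, -0.79 ± 0.24, edgeR's adjusted p = 0.0254); in wild type 1 fell (Dnmt3b, a DNA methyltransferase, -0.89 ± 0.21) and 1 rose (Chd4, a chromatin remodeller, 0.41 ± 0.10). Trim28, expressed at 141 CPM on average, had a log2 fold change of -0.10 ± 0.09 in KO and -0.16 ± 0.08 in wild type, with adjusted p values of 0.55 and 0.217, and Setdb1 had 0.03 in KO and -0.13 in wild type.

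Zinc finger genes outside the naming pattern were counted in the same way. Of 18 measured genes with a SCAN domain, a dimerisation module, 13 fell in KO and 14 in wild type, with medians of -0.91 and -0.87 on the log2 scale and none higher. Of 39 measured genes with a BTB domain, another protein interaction module, 18 fell and 5 rose in KO, and 15 fell and 5 rose in wild type, with medians of -0.39 and -0.23. Among all genes tested 7.35% fell and 6.36% rose in KO, and 8.03% fell and 7.1% rose in wild type.

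With α-synuclein fibrils fewer members passed the test than with LPS, and more of them fell than rose. In KO 44 members fell (14.7%), against 11.5% of all genes, and 16 rose (5.33%), against 12.2%, with 23.7% of all genes called; in wild type 40 fell (13.3%), against 15.6%, and 17 rose (5.67%), against 13.8%, with 29.4% of all genes called. Every KO fibril library lay below every KO control for 18 members (6%, against 3.41% of all genes) and above for 5 (1.67%, against 4.68%), and every wild-type fibril library lay below every wild-type control for 39 (13%, against 13.4%) and above for 25 (8.33%, against 16.4%). The median log2 fold change of members was -0.15 in KO and -0.13 in wild type, and 31 of 172 KRAB members fell in KO and 25 in wild type. Shared by both genotypes were 24 members that fell and 9 that rose. Markers of other cells moved in the same wild-type comparison, where 8 of 12 astrocyte, 3 of 13 oligodendrocyte and 8 of 12 fibroblast markers fell, and Ntsr2, Mobp, Mog and Aldh1a2 were at 0 in all wild-type fibril libraries; their part in the members' changes was not tested beyond a fit with the marker score as a covariate, which called 25 members in wild type in place of 57. Without wild-type fibril library 2 there were 36 calls in wild type, and a fit to the compared groups alone called 29 in KO in place of 60.

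The largest fibril responses were those of Zfp667 and Zfp811. Zfp667 (Mipu1), a KRAB repressor described in stressed heart and macrophages, had 1.38, 2.01, 0.9, 0.836 and 0.53 CPM in KO fibril libraries, against 2.02 to 8.15 CPM with a median of 3.0 in KO controls. Wild-type fibril libraries had 0.98, 0.976, 1.4 and 1.0 CPM, against 2.03, 2.13, 5.44, 7.63 and 8.76 CPM in wild-type controls. Fibril libraries lay below the controls in both genotypes, narrowly in KO, with log2 fold changes of -1.79 ± 0.42 in KO (edgeR's adjusted p = 0.00255) and -2.25 ± 0.48 in wild type (adjusted p = 0.001). With LPS its estimates of -0.24 in KO and -0.02 in wild type did not pass the test.

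Zfp811, a KRAB gene of the second chromosome 17 cluster, went the other way. It had 6.69, 7.03, 14.6, 17.4 and 22.5 CPM in KO fibril libraries, against 0.298 to 3.87 CPM with a median of 2.24 in KO controls, and 6.77, 8.39, 4.74 and 6.98 CPM in wild-type fibril libraries, against 1.43, 1.22, 4.23, 1.76 and 0.7 CPM in wild-type controls. No fibril library overlapped a control, although KO values spread widely, and the log2 fold change was 2.63 ± 0.48 in KO (edgeR's adjusted p = 0.000197) and 1.85 ± 0.53 in wild type (adjusted p = 0.00987).

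Zfp281, a regulator of pluripotent cells without a KRAB box, had 76.9, 82.1, 124, 140 and 152 CPM in KO fibril libraries, against 43.3 to 82.3 CPM with a median of 66.9 in KO controls. Wild-type fibril libraries had 98.7, 105, 101 and 89 CPM, against 64.6, 57.6, 64.1, 48.6 and 38.7 CPM in wild-type controls. The groups lay apart in wild type and overlapped at 2 KO fibril libraries, and the log2 fold change was 0.84 ± 0.17 in KO (edgeR's adjusted p = 0.000461) and 0.85 ± 0.18 in wild type (adjusted p = 0.00132). Zfp719 rose with fibrils as with LPS, by 0.72 ± 0.14 on the log2 scale in KO and 0.56 ± 0.16 in wild type, where scaling by library size only ended the call (edgeR's adjusted p = 0.142).

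Zfp143, whose element was searched above and which was named for that reason, had 26.3, 24.7, 25.4, 26.2 and 30.8 CPM in KO fibril libraries, 17.0, 17.4, 15.3 and 13.8 CPM in KO LPS libraries and 14.5 to 25.2 CPM with a median of 20.6 in KO controls. Fibril values were above all but 1 control, and LPS values lay in the lower part of the controls' range or just below it. Zfp143 rose with fibrils by 0.38 ± 0.11 on the log2 scale in KO and 0.32 ± 0.12 in wild type, and with LPS it fell by 0.37 ± 0.12 in KO (edgeR's adjusted p = 0.0284), while the wild-type estimate was -0.01. The wild-type fibril call was lost in 15 of 20 alternatives, among them without any 1 of the 4 fibril libraries or of wild-type controls 1, 3, 5 and 6 (adjusted p 0.0507 to 0.115). The KO call with LPS was lost in 6 of 21, among them without KO control 5 or 6 or KO LPS 3 or 4 (adjusted p 0.061 to 0.116).

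Set directly against LPS over both genotypes, fibrils left 203 members higher (67.7%), against 21.6% of all genes, and 28 lower (9.33%), against 20.7%, where 42.3% of all genes were called. Among KRAB members 137 of 172 were higher and 8 lower with fibrils than with LPS, with a median log2 difference of 0.76, and among the others 66 of 128 were higher and 20 lower, with a median of 0.26. Zfp273, Zfp128 and Zfp85 led this list at 2.59 ± 0.21, 2.58 ± 0.17 and 2.55 ± 0.22, and Zfp667, Zfp703 and Zfp263 were at its lower end at -1.89 ± 0.32, -1.53 ± 0.32 and -1.16 ± 0.08.

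Few members differed between the genotypes within any 1 treatment. KO controls differed from wild-type controls at 1 member, Zfp991 (0.333%), against 0.153% of all genes called higher, and 73.8% of its windows occur in other genes, so its value is uncertain. That call (log2 difference 0.42, edgeR's adjusted p = 0.0292) was lost in 11 of 22 alternatives, among them without KO control 1, 3, 4 or 5 or wild-type control 2 or 6 (adjusted p 0.0556 to 0.155). With LPS 6 members were higher in KO (2%), against 0.474% of all genes, and 2 were lower (0.667%), against 1.25%, with 1.73% of all genes called. With fibrils 4 were higher (1.33%), against 5.27%, and 3 lower (1%), against 3.67%, with 8.94% of all genes called. Every KO library lay below every wild-type library for 12 members with LPS and 12 with fibrils (4% each, against 5.21% and 7.87% of all genes), and above for 17 and 17 (5.67% each, against 3.08% and 7.44%). Over the 3 treatments together 30 members were higher in KO (10%), against 7.08% of all genes, and 3 were lower (1%), against 4.14%. That made 33 of 300 members called, where 11.2% of all genes were called, and 11 with the marker score as a covariate. Of the 30 higher members 24 carry a KRAB box, beside 172 of all 300 members.

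Zfp61, a KRAB gene with 8 fingers (chr7:24291039-24301232, - strand), held the largest genotype difference with LPS. It had 3.31, 2.71, 3.33 and 3.35 CPM in KO LPS libraries, against 0.75 to 1.44 CPM with a median of 1.02 in wild-type LPS libraries. The groups lay well apart, and the log2 difference was 1.57 ± 0.18 (edgeR's adjusted p = 4.65e-06). With fibrils Zfp61 had 6.78, 6.91, 4.8, 6.64 and 4.67 CPM in KO, against 3.92, 4.27, 4.43 and 4.18 CPM in wild type, and in controls it had 5.94 to 9.54 CPM with a median of 8.05 in KO, against 4.95, 5.98, 4.46, 4.17 and 6.54 CPM in wild type. Fibril groups did not overlap and control groups overlapped slightly, and these differences, 0.51 ± 0.18 and 0.57 ± 0.16, did not pass the test in edgeR (adjusted p = 0.0679 and 0.19). DESeq2 called both (adjusted p = 0.0194 and 0.0255), as did the fit without the 7 libraries set apart (0.0123 and 0.0221), and leaving out KO fibril 5 alone gave 0.046 with fibrils. Over the 3 treatments the difference was 0.88 ± 0.10 (adjusted p = 1.03e-06).

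The LPS response of Zfp61 itself was -1.28 ± 0.18 in KO and -2.29 ± 0.17 in wild type, and the difference between these responses, 1.01 ± 0.24, did not pass the test (edgeR's adjusted p = 0.992). No member and no gene of the table passed the test for a different LPS or fibril response between genotypes in edgeR, DESeq2 or limma-voom. At an unadjusted p under 0.05 there were 600 genes for LPS, 17 of them members, and 1667 genes for fibrils, 14 of them members.

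Zfp760, a KRAB gene with 16 fingers on chromosome 17, showed the same order. It had 2.98, 2.87, 2.78 and 2.66 CPM in KO LPS libraries, against 0.896 to 2.06 CPM with a median of 1.5 in wild-type LPS libraries, and 5.98, 6.36, 7.65, 7.58 and 5.68 CPM in KO fibril libraries, against 4.5, 4.76, 3.95 and 4.39 CPM in wild-type fibril libraries. All KO values exceeded the wild-type values under both treatments, by 0.93 ± 0.17 on the log2 scale with LPS (edgeR's adjusted p = 0.00566) and 0.59 ± 0.17 with fibrils (adjusted p = 0.0296). The Zfp760 call with LPS was kept in all 21 alternatives, and that with fibrils was lost in 7 of 20, among them without KO fibril 3 or 4 or any 1 of the 4 wild-type fibril libraries (adjusted p 0.0509 to 0.0911). Zfp128 was higher in KO than in wild type with LPS by 1.15 ± 0.25 on the log2 scale (adjusted p = 0.0159), a call lost without KO LPS 3 or 4 (0.0519 and 0.0891). Zfp72 was higher by 1.18 ± 0.31 (adjusted p = 0.0495), a call that 13 of 20 alternatives ended, among them leaving out KO LPS 1, 2 or 4 or wild-type LPS 1, 3, 4, 5 or 6 (adjusted p 0.0573 to 0.307).

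Zfp526, which has no KRAB box, was lower in KO. It had 2.33, 2.22, 1.35 and 1.97 CPM in KO LPS libraries, against 2.88 to 3.39 CPM with a median of 2.98 in wild-type LPS libraries. The groups did not overlap, and the log2 difference was -0.64 ± 0.15 with LPS (edgeR's adjusted p = 0.0263) and -0.53 ± 0.15 with fibrils (adjusted p = 0.0254). The LPS call was lost without KO LPS 3 or 4 or wild-type LPS 3 or 5 (adjusted p 0.0549 to 0.0965), and the fibril call without KO fibril 3 or wild-type fibril 1, 3 or 4 (adjusted p 0.0529 to 0.0808). Over the 3 treatments it was kept in every alternative, at -0.53 ± 0.08 (adjusted p = 0.000176). Zfp704 had 39.9, 49.9, 23.3, 34.4 and 30.7 CPM in KO fibril libraries, against 63.5, 54.8, 66.8 and 58.2 CPM in wild-type fibril libraries, without overlap, at a log2 difference of -0.77 ± 0.19 (adjusted p = 0.0136).

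Zfp110 and Zfp369, which encode the related proteins Nrif and Nrif2 known from neurotrophin receptor signalling, were higher in KO with fibrils. Zfp110 had 35.1, 37.2, 43.8, 39.9 and 40.8 CPM in KO fibril libraries, against 28.9, 30.3, 29.8 and 27.7 CPM in wild-type fibril libraries. The groups lay apart, with a log2 difference of 0.43 ± 0.09 for Zfp110 (edgeR's adjusted p = 0.00696) and 0.51 ± 0.12 for Zfp369 (adjusted p = 0.01), whose call was lost without wild-type fibril 1 (adjusted p = 0.0519). In the same comparison 8 of 12 astrocyte, 3 of 13 oligodendrocyte, 8 of 12 fibroblast and 3 of 3 neuron markers were higher in KO, and with the marker score as a covariate none of the 7 member calls with fibrils passed the test. The count with LPS was 2 in place of 8 without KO LPS 4, 4 without KO LPS 1, and 5 without KO LPS 2 or wild-type LPS 3, 5 or 6. The count with fibrils was 13 in place of 7 without KO fibril 2, 2 without wild-type fibril 1, 4 without wild-type fibril 2, and 3 without KO fibril 3 or wild-type fibril 3 or 4. Without KO LPS 4, KO fibril 3 or wild-type fibril 2 the count over the 3 treatments was 20, 21 and 21 in place of 33.

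**Figure D5:**
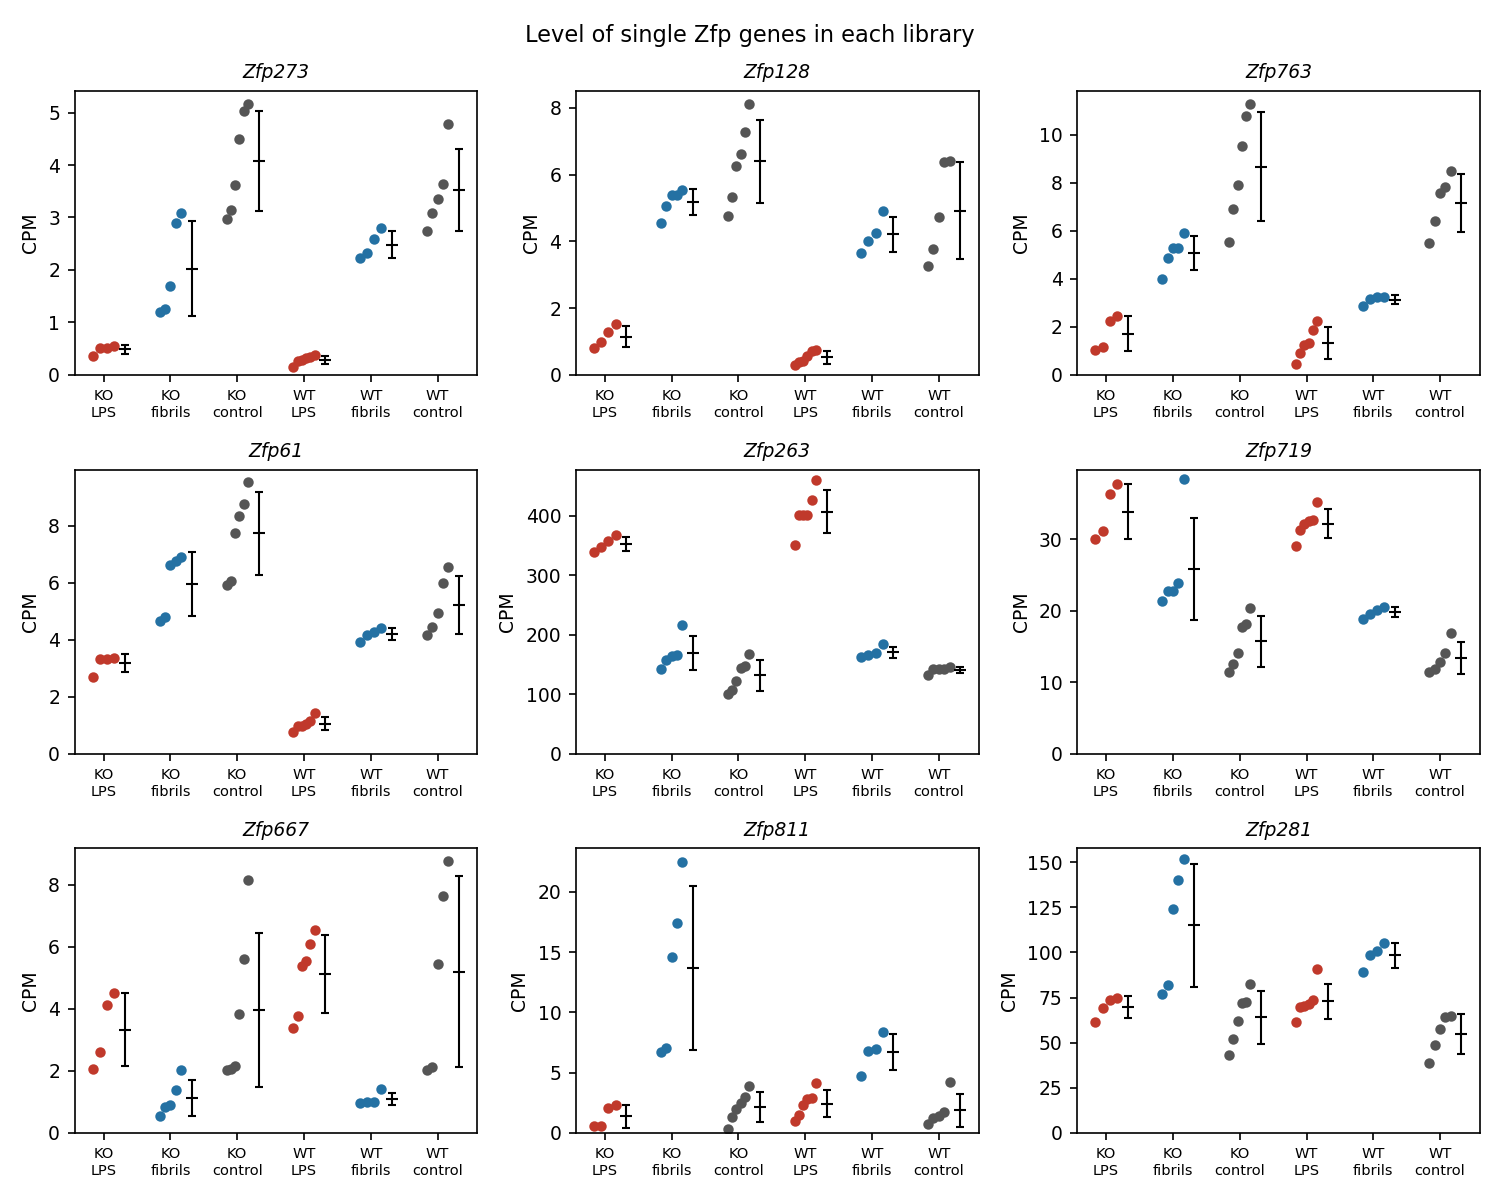
Levels of 9 members in each of the 30 libraries (y axis, CPM, linear scale from 0), by genotype and treatment, with the mean ± SD of each group at the right of its points. Zfp273, Zfp128, Zfp763 and Zfp61 are low with LPS, Zfp263 and Zfp719 are high with LPS, and Zfp667, Zfp811 and Zfp281 differ with fibrils.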

How the data were processed

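The authors deposited 1 table of raw counts per Ensembl transcript, in whole numbers and not normalized. CASAVA 1.7.1 (base calls), STAR 2.4.2a (alignment) and the build mm10 are named in the submitters' processing notes, and the sources used here name no counting program. Per the labels' protocols, libraries were stranded and single-end.

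Counts were summed to genes with GENCODE M21 (91320 of 94647 transcripts matched; the others held 0.779% to 0.891% of counts). After edgeR's low-count filter 14346 genes were scaled with TMM and fitted by the quasi-likelihood test of edgeR 4.0.16 in R 4.3.3, with a mean for each of 6 groups over 30 libraries (24 residual degrees of freedom; the common biological CV was 0.294), and called at a Benjamini-Hochberg adjusted p under 0.05. CPM values use the TMM-scaled library size, log2 CPM a prior count of 2; the rule for members used unscaled CPM. The fit was also run on counts simulated under its own model from the levels and spread of these data. Such a run cannot show whether the model suits the data. DESeq2 1.42.0 and limma-voom (limma 3.58.1) were alternatives, as were other scalings, filters, covariates and left-out libraries. No 2 of the 30 libraries were identical.

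KRAB boxes and fingers were sought by residue patterns in the longest reading frames of GENCODE transcripts, in place of the RefSeq proteins first planned. Promoters came from RefSeq (GRCm38.p6). Named genes were the up to 6 largest increases and decreases among called members of each comparison, the 8 most abundant members, Zfp61, Zfp763 up to 3 members of a cluster and 4 called genes of another list by p, genes behind counts of 5 or fewer, and those at the threshold; exceptions are marked. Members, lists and tests were chosen with earlier results of these data known.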

Additional observations from a re-analysis of the deposited data

Results flagged for a closer look

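In 186 groups of values (28 described members and 3 summaries per library, each in 6 groups), 11 single values lay far from the rest of their group by Dixon's criterion, and chance flags about 1 group in 20. With LPS, KO library 3 had 0.357 CPM of Zfp273 while the other KO LPS libraries had 0.515 to 0.542 CPM, and KO library 2 had 2.71 CPM of Zfp61 beside 3.31 to 3.35 CPM. Wild-type LPS library 6 had 22.8 CPM of Zfp110 beside 28.9 to 31.1 CPM. With fibrils, KO library 3 had 38.4 CPM of Zfp719 beside 21.3 to 23.9 CPM, and KO library 5 had 30.8 CPM of Zfp143 beside 24.7 to 26.3 CPM. Wild-type fibril library 3 had 5.77 CPM of Zfp85 beside 3.42 to 3.79 CPM and 1.4 CPM of Zfp667 beside 0.976 to 1 CPM, and wild-type fibril library 1 had 1.02 CPM of Zfp651 beside 0.634 to 0.668 CPM. Among wild-type controls, library 2 had 132 CPM of Zfp263 beside 142 to 146 CPM, library 6 had 1.63 CPM of Zfp697 beside 0.792 to 1.01 CPM, and library 5 had a median KRAB member level of 2.95 on the log2 CPM scale beside 3.07 to 3.09.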

How the results depend on the processing

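With LPS the number of members called stayed within 189 to 234 in wild type (200 as reported; 189 to 203 with each library left out) and 160 to 220 in KO (197; 178 to 198), and for fibrils against LPS within 218 to 234 (231; 220 to 230); no different response between genotypes was called in any setting. Without normalization beyond library size the median of all genes moved to -0.21 in KO and -0.23 in wild type with LPS, while members stayed 0.63 and 0.67 below it, and the split of higher and lower members was 7 and 70 in KO and 4 and 91 in wild type with fibrils (as reported 16 and 44, and 17 and 40), and for KO against wild type 7 and 0 with LPS and 12 and 1 with fibrils (as reported 6 and 2, and 4 and 3). Fibrils in wild type (57 called) gave 95 by library size only, 25 with the marker score as a covariate and 88 without the 7 libraries set apart, and 36 to 64 with each library left out; fibrils in KO (60) gave 29 with the compared groups only and 42 to 69. KO against wild type in controls (1) gave 0 by library size only, without a filter, with the covariate and with the compared groups only, 2 with RLE factors, the 1 CPM filter and without the 7 libraries, 4 with limma-voom and 5 with DESeq2 (0 to 2). With LPS (8) it gave 4 without a filter, 4 with limma-voom, 16 with DESeq2, 20 without the 7 libraries and 18 with the compared groups only (2 to 8). With fibrils (7) it gave 13 by library size only, 4 without a filter, 16 with DESeq2, 0 with the covariate, 11 with protein-coding transcripts only and 22 without the 7 libraries (2 to 13). Over 3 treatments (33) it gave 86 by library size only, 20 without a filter, 54 with DESeq2, 11 with the covariate and 55 without the 7 libraries (20 to 44). The cause of these moves was not tested. Of 3577 values of named members under alternatives 3311 kept their side of the threshold, 254 lost a call, 12 gained one and none changed direction. Only Zfp61 was followed in comparisons that did not call it, so only Zfp61 could gain a call. Whether replicate numbers pair the libraries was not settled, and the reported fits treat them as unpaired. Of 64 same-numbered pairs 25 had correlated deviations above 0.1 (range -0.52 to 0.65, mean 0.07), and 12 of 30 libraries were closest to their own number. The counts that arise by chance were not worked out, so this check does not decide the question. For wild-type controls the replicate numbers in title and description differ, and all numbers used here are those of the titles. Zfp72 fell under the low-count filter in the fit to the compared groups of KO against wild type with LPS, so no value was had there. With a replicate block, KO against wild type gave 5 calls in place of 8 with LPS and 16 in place of 7 with fibrils. Depth limits the 94 members with mean levels under 5 CPM, whose values rest on few counts.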
